A study of Mus musculus with 5 samples.

Results

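Homeobox, PAX and POU genes code for transcription factors that pattern the embryo and set cell lineages. Of the 1682 genes in a pooled CRISPR library, 103 were chosen here, most of them from these families. Other homeobox genes of the library were left out. The 103 were chosen by gene symbol, with earlier results of these data known. The rule took names starting with PAX, LHX, DLX, NKX, MSX, IRX, EMX, GBX, ISL, BARX, BARHL, PITX, ALX, PRRX, CDX, MEIS, PBX, TGIF, ONECUT, CUX, MEOX, HNF1, PHOX2 or POU, without Pou5f1, together with the sine oculis-related homeobox family, Hhex, Otx1, En1 and En2. All 103 symbols matched a RefSeq gene of GRCm38.p6, the assembly also called mm10. The rule also took in Paxbp1 and Pbxip1, whose products bind PAX and PBX proteins and are not themselves PAX or homeobox factors. Each gene has 10 guide RNAs, so the members hold 1030 of the 17820 guides.

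In such a screen each transduced cell carries a guide RNA that directs Cas9 to cut 1 gene, and a guide's part of the reads stands for the part of the cells that hold it. Mouse embryonic stem (ES) cells with the genotype label Ainv15(iNgn2 Tubb3::GFP) were infected with the lentiviral library and kept in ES cell medium with Zeocin, and 1 library of guide reads was made at each of days 5, 8 and 12. Sample titles count these days from transduction, while the protocol text counts day 5 from selection. The treatment label reads "No treatment" for all 5 libraries. The starting pool was read as 2 libraries of plasmid DNA, which carry the same genotype label although they hold no cells. Nothing in the labels says that the 2 plasmid libraries came from separate preparations, so their spread may be technical. Each time point is 1 library, and whether the 3 time points come from 1 culture is not given in the sources used here. Loss of a guide does not tell slower division from death or from loss during selection.

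A homeodomain binds DNA through a helix-turn-helix fold. PAX proteins carry a paired domain, some with a homeodomain beside it, and POU proteins carry a POU-specific domain joined to a homeodomain. TALE-class proteins such as PBX, MEIS and TGIF often act as partners or repressors beside other factors. Many lineage homeobox genes are held silent by Polycomb in undifferentiated ES cells, while some members, such as the octamer-binding factor gene Pou2f1, are expressed widely.

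The results turn on the ends of the range, so the guides of the 2 members with the lowest and the 2 with the highest values are shown first, 5′ to 3′, as listed in the deposited files. The last 10 bases, next to the PAM and least tolerant of mismatches, are in capitals. Guides of a gene are numbered from its lowest to its highest change at day 12.

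Onecut1 guide 1: acttcttcatGAATGCCAGG
Onecut1 guide 2: caaccccagcTGCTGGGAGA
Onecut1 guide 3: gtgatttgtaATTCTTTGGA
Onecut1 guide 4: caaacgttacAGCATCCCAC
Onecut1 guide 5: aactctacatGCAATATTCA
Onecut1 guide 6: ttgcatgtagAGTTCGACGT
Onecut1 guide 7: gatgctgtaaCGTTTGAGCT
Onecut1 guide 8: ggtttcgcagCAGGTCCGAA
Paxbp1 guide 1: cttcaggagtTATCAATAGA
Paxbp1 guide 2: ctgagttctgAAAAGCCATA
Paxbp1 guide 3: tcaactgtttCCCTAAACAG
Paxbp1 guide 4: acaatttacaGGAACAGTAT
Paxbp1 guide 5: tgcaagtgacCACAATGTGA
Paxbp1 guide 6: ctgctaaatgTACAAGATAT
Paxbp1 guide 7: gaagtcaagtCTCTGATTGA
Paxbp1 guide 8: cagtattgggTGCTCTGATG
Irx2 guide 1: gatggcgccaGTCATTCCGG
Irx2 guide 2: ggctacctgtACCAAGCGCC
Irx2 guide 3: ggccccaaggAACAAAAGCG
Irx2 guide 4: tccgcgttcaGCCCGTACCC
Irx2 guide 5: gcgtccgccgAGTACTGCAG
Irx2 guide 6: cgtaccgtaaGAACGCTACG
Irx2 guide 7: gccggggtacGGGCTGAACG
Irx2 guide 8: ctaccatccaTATGGCAGTG
Pax9 guide 1: ccgggtcaccACCCCTACTG
Pax9 guide 2: acggctgatgGAACTCACCG
Pax9 guide 3: cgacaagtacAACGTGCCCT
Pax9 guide 4: cccgcacgcaGTGAATGGAT
Pax9 guide 5: gatgcccagaATGTCCGTGA
Pax9 guide 6: cggcggcaggGAAGTTGTTG
Pax9 guide 7: ttggagcaggAAGCCAAGTA
Pax9 guide 8: tccattcactGCGTGCGGGG
Pax9 guide 9: aatgtggttgTAGGGCAGCG

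A guide was used only if both plasmid libraries gave it 30 or more reads. That kept 895 member guides, 6 to 10 for each of the 103 genes, of 15336 guides in all. Read totals ran from 1008492 to 3541896 per library, and the median kept member guide had 180 reads in plasmid library 1, 69 in plasmid library 2, and 62, 66 and 61 at days 5, 8 and 12. Of the kept member guides, 1 had no reads at day 12, against 93 of the 14443 kept guides to all genes. Member guides took 5.90% of all reads in each plasmid library, then 6.69%, 6.91% and 6.95% at days 5, 8 and 12, with a Wilson 95% interval of 6.90% to 7.00% at day 12. That interval covers counting error only, since reads are not separate cells.

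The members stayed close to their starting abundance. Each guide's change is the log2 ratio of its scaled abundance plus 1 to that of the plasmid mean plus 1, and a gene's value is the median over its guides. At day 12 the 103 members had a median of 0.29 (SD over genes 0.33, range -1.01 to 0.92), and all 1682 genes had a median of 0.01 (SD 0.90, range -4.83 to 2.59). Of the members, 83 lay above 0, against 854 of the 1682 genes. Within 0.5 of 0 lay 83 members, which is 80.6% against 65.7% of all genes. Only 1 member, Onecut1, was at or below -1, a 2-fold loss, and 15.8% of all genes passed that fold in the same direction. No member was at or above 1, and 1.19% of all genes were. With 1 library per time point these counts rest on size alone and have no test.

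The non-targeting control guides, which cut nothing in the genome by design, stood above the members. Their median at day 12 was 0.58 (SD over guides 0.70, 893 guides). Of the 103 members, 8 had a value above it, or 7.77% against 6.24% of all genes. Member guides had a median of 0.26 (895 guides) and guides to all other genes -0.09 (13548 guides). Measured from the non-targeting median, the members had a median of -0.30 and all genes -0.57. Whether members are called higher or lower therefore depends on the yardstick: they lay above the typical gene and below the control guides.

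The same order held at the earlier time points. At day 5 the members had a median of 0.13 and at day 8 of 0.22, against 0.01 and 0.01 over all genes. No member passed 2-fold at day 5 (6.3% of all genes were past it downward and 0.0595% upward) or at day 8 (12.1% downward and 0.178% upward). Values above 0 at all 3 days were found for 72 members, or 69.9%, against 36.2% of all genes. Values below 0 at all 3 days were found for 9 members, or 8.74%, against 35.0%. The comparisons of the 3 days share the plasmid libraries, so these signs are not independent. From day 5 to day 12, without the plasmid libraries, the members had a median of 0.10 and none passed 2-fold, where 7.02% of all genes passed it downward and 0.832% upward.

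By family, on the scale where the non-targeting median is 0.58, the 13 POU genes had a median of 0.40 at day 12, with 12 of 13 above 0. Pou5f1, which the rule left out by name, stood at -2.08. The 9 PAX genes had a median of 0.31 and all 9 lay above 0 at days 5, 8 and 12. The 9 LIM-homeodomain genes (LHX and ISL) had a median of 0.33 and the 11 PRD-like genes (PITX, ALX, PRRX, PHOX2 and OTX1) 0.26. The 31 NK-like and related genes had a median of 0.28 and ranged from -0.15, for the pancreas and motor neuron factor gene Nkx6-1, to 0.69 for Hhex. The 6 sine oculis-related genes spread more widely, from -0.69 for Six4 to 0.60 for the forebrain and eye gene Six3, with a median of 0.48. The 16 TALE genes had a median of 0.26 and 6 lay below 0. The 6 CUT and HNF1 genes had a median of -0.10, and 5 of 6 lay below 0. The 2 partner protein genes, Paxbp1 and Pbxip1, stood at -0.95 and 0.28. No test was made between families, whose members differ in number and in guides.

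Onecut1, a gene for a liver and pancreas factor also known as HNF6 (chromosome 9, 74861921 to 74889648), had the lowest value. Its 8 kept guides had a median of -1.01 at day 12 (SD over guides 1.44), after -0.53 at day 5 and -0.56 at day 8. The guides split into 5 below 0 and 3 above it: guides 1 to 8 stood at -2.63, -2.55, -1.98, -1.15, -0.87, 0.37, 0.49 and 1.09. Its summed scaled abundance was 360 and 332 CPM in plasmid libraries 1 and 2, then 260, 303 and 307 CPM at days 5, 8 and 12, so the sum moved less than the median. In a test of the trend over days, the sum did not pass the threshold (adjusted p = 0.386, edgeR), and it fell when scaled to the non-targeting guides (slope -0.076 log2 units per day, adjusted p = 0.0142, edgeR). With guides below 30 plasmid reads included the median was -0.27, and under a correction for base composition it was -0.66. Without plasmid library 2 it was -0.98, short of a 2-fold loss, and Paxbp1 was then the 1 member past it.

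Overlapping Onecut1 guides did not move together. Guides 4 and 7, on opposite strands, share a run of 16 bases and stood at -1.15 and 0.49. Guides 5 and 6, also on opposite strands, share a run of 14 bases and stood at -0.87 and 0.37. Shared runs thus include matches to the reverse complement of a guide. Over all members, 190 pairs of kept guides to the same gene share a run of 12 or more bases, with a median difference of 0.646 log2 units within a pair. The 3301 other pairs of guides to the same gene had a median difference of 0.584.

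Paxbp1 (chromosome 16, 91014037 to 91044379), whose product links PAX3 and PAX7 to histone methylation in muscle precursors, came next, short of a 2-fold loss. Its 8 kept guides had a median of -0.95 at day 12 (SD 1.84, 6 of 8 below 0), after -0.51 at day 5 and -0.61 at day 8. From day 5 to day 12 its median was -0.83. Guides 1 to 8 stood at -5.06, -2.97, -2.15, -0.98, -0.92, -0.44, 0.09 and 0.53, so the 3 lowest were far below the rest. Guide 1 had 128 and 37 reads in the plasmid libraries, then 9, 1 and 0 reads at days 5, 8 and 12. Paxbp1 guides had on average 7.75 G or C bases of 20, against 11.6 over all member guides, and the median corrected for base composition was -0.54. With at least 100 plasmid reads per guide the median was 0.04. That minimum kept only guides 3, 7 and 8, which did not move together, and dropped guides 1 and 2.

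A trend over days was tested with edgeR's quasi-likelihood test on reads summed over the guides of a gene, with plasmid as day 0 and p-values adjusted over all 1682 genes. The fit has 3 residual degrees of freedom, and it takes its error from how the 2 plasmid libraries differ and how far the time points stray from a line. Of the members, 65 rose, or 63.1%, where 34.7% of all genes rose. Only Paxbp1 and Pbx2 fell, or 1.94% of members, where 25.2% of all genes fell. Scaled to the reads of the non-targeting guides instead, 2 members rose (1.07% of all genes did) and 53 fell (72.2% of all genes did). Of the 65 that rose, 55 had a slope below 0 on that scale and 17 of these fell. Without plasmid library 2, 43 members rose and 1 fell. Under the stricter minimum of 100 plasmid reads, at which not every member kept a guide, 37 rose and 2 fell. Of the 65, 53 also rose without each gene's most deviating guide. Guide by guide, 203 of the 895 member guides rose (17.8% of all guides did) and 66 fell (22.9% of all guides did). Of the non-targeting guides 45.5% rose and 4.82% fell. Scaled to the non-targeting guides, 27 member guides rose (2.86% of all guides did) and 279 fell (46.9% of all guides did). The direction of most member trends thus depended on the scaling, so the trends of single genes are given under both scalings below.

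Pbx2, a gene for a TALE-class HOX partner (chromosome 17, 34592259 to 34597400), fell under both scalings. Its summed abundance was 482 and 500 CPM in the plasmid libraries, then 425, 365 and 304 CPM at days 5, 8 and 12. Each later library lay below both plasmid libraries. The slope was -0.0562 log2 units per day (SE 0.0105, adjusted p = 0.00208, edgeR), and scaled to the non-targeting guides it was -0.116 (adjusted p = 0.000197, edgeR). Its guide medians at days 5, 8 and 12 were 0.03, -0.31 and -0.67, with 6 of 8 guides below 0. The related genes Pbx3 and Pbx4 had day 12 medians of 0.38 and -0.05.

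Paxbp1 also fell under both scalings. Its summed abundance was 490 and 442 CPM in the plasmid libraries, then 378, 327 and 346 CPM at days 5, 8 and 12. The slope was -0.0429 per day (SE 0.0127, adjusted p = 0.0173, edgeR), and -0.101 when scaled to the non-targeting guides (adjusted p = 0.00153, edgeR). The Paxbp1 trend passed the threshold in 9 of the 12 alternatives, where the adjusted p reached 0.267. Those in which it did not pass included leaving out plasmid library 1 and leaving out plasmid library 2.

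Tgif1, a gene for a TALE-class repressor in TGF-beta signalling (chromosome 17, 70844205 to 70853532), had its lowest level at day 12. It had 667 and 662 CPM in the plasmid libraries, then 717, 649 and 446 CPM at days 5, 8 and 12. Its median was -0.64 at day 12 with 9 of 10 guides below 0, and -0.49 from day 5 to day 12. The slope of -0.0347 missed the threshold (adjusted p = 0.0576, edgeR), and scaled to the non-targeting guides it passed (adjusted p = 0.000282, edgeR). Tgif2 and Tgif2lx1 had day 12 medians of -0.31 and -0.24, and neither passed the threshold (adjusted p = 0.102 and 0.229, edgeR). Scaled to the non-targeting guides both fell, with slopes of -0.0787 and -0.0748 (adjusted p = 0.000701 and 0.00139, edgeR).

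Six4, a gene for a muscle and kidney developmental factor (chromosome 12, 73099609 to 73114031), had 545 and 558 CPM in the plasmid libraries, then 489, 516 and 476 CPM at days 5, 8 and 12. Its median at day 12 was -0.69 with 7 of 9 guides below 0. Its slope did not pass the threshold (-0.0164, adjusted p = 0.119, edgeR), and scaled to the non-targeting guides it fell (-0.0757, adjusted p = 0.00102, edgeR). Among its paralogs, Six5 stood at -0.10, Six6 at 0.45, Six2 at 0.56 and Six3 at 0.60.

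At the other end stood Pax9, a gene for a factor of tooth, thymus and skeletal development (chromosome 12, 56691693 to 56712824). It had 532 and 554 CPM in the plasmid libraries, then 781, 806 and 1190 CPM at days 5, 8 and 12. All 3 later libraries lay above both plasmid libraries. Its median was 0.34, 0.53 and 0.92 at days 5, 8 and 12 (SD over guides 0.93 at day 12, 8 of 9 above 0). The slope was 0.0896 (SE 0.00904, adjusted p = 8.83e-05, edgeR), and 0.0311 when scaled to the non-targeting guides (adjusted p = 0.0399, edgeR). Guide 9 had 115 and 61 reads in the plasmid libraries, then 52, 55 and 278 reads at days 5, 8 and 12. Without each gene's most deviating guide the slope was 0.0692 (adjusted p = 0.000219, edgeR). Guides 4 and 8, on opposite strands, share a run of 19 bases and stood at 0.77 and 1.10.

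Among the other PAX genes, Pax6, a master factor of eye development, had 414 and 350 CPM in the plasmid libraries, then 408, 450 and 598 CPM at days 5, 8 and 12. Its slope of 0.0478 rose (adjusted p = 0.00978, edgeR) but was -0.0105 when scaled to the non-targeting guides (adjusted p = 0.597, edgeR). Pax7, the satellite cell factor gene, had the lowest PAX median, at 0.07. Its slope did not pass the threshold (adjusted p = 0.913, edgeR), and scaled to the non-targeting guides it fell (-0.0581, adjusted p = 0.00484, edgeR).

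Hhex, a gene for a factor of early endoderm and blood (chromosome 19, 37434841 to 37440731), had 601 and 609 CPM in the plasmid libraries, then 782, 957 and 1290 CPM at days 5, 8 and 12. The levels are higher at each later day. All 7 kept guides lay above 0 at day 12, from 0.07 to 2.15, with a median of 0.69. The slope was 0.0894 (SE 0.00774, adjusted p = 5.88e-05, edgeR), and 0.0307 when scaled to the non-targeting guides (adjusted p = 0.0372, edgeR). Pax9 and Hhex were the 2 members that rose under both scalings. For neither gene was the rise scaled to the non-targeting guides tested without its most deviating guide. Hhex guides had on average 13.3 G or C bases, Pax9 guides 11.9 and non-targeting guides 11.1. Non-targeting guides with 13 or more had a day 12 median of 0.77, above that of Hhex and below the 0.92 of Pax9. Whether either trend rose against non-targeting guides of like base composition was not tested.

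Irx2, an Iroquois gene of the TALE class (chromosome 13, 72624430 to 72634196), had 316 and 332 CPM in the plasmid libraries, then 428, 479 and 558 CPM at days 5, 8 and 12. Its guides 1 to 8 stood at -0.76, 0.03, 0.68, 0.69, 1.04, 1.05, 1.24 and 1.36, a more even series than in Onecut1 or Paxbp1. The slope rose (0.0669, adjusted p = 0.000784, edgeR), and scaled to the non-targeting guides it did not pass the threshold (0.00789, adjusted p = 0.599, edgeR). Meis1, a HOX cofactor gene of the same class, had all 9 guides above 0 and a median of 0.42.

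Pou2f1, which codes for the widely expressed octamer-binding factor OCT1 (chromosome 1, 165865150 to 166002749), had the highest POU value. It had 899 and 917 CPM in the plasmid libraries, then 1140, 1150 and 1460 CPM at days 5, 8 and 12, and a median of 0.74. Of its 10 guides, 7 rose in the guide-by-guide test. Its gene slope was 0.054 (adjusted p = 0.00126, edgeR), and -0.00469 when scaled to the non-targeting guides (adjusted p = 0.715, edgeR). Pou2f2, which codes for the B cell factor OCT2, had the lowest POU value, at -0.03, and Pou3f1, a gene of the epiblast and of Schwann cells, stood at 0.41.

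The other lineage factors picked for this paragraph ranged from -0.24 to 0.53 at day 12. Some members not picked stood higher, such as Msx2 at 0.63 and Dlx5 at 0.61. Cdx2, the trophectoderm and intestine factor gene, had a median of -0.12. Its summed slope rose (0.0321, adjusted p = 0.0182, edgeR) but was -0.027 when scaled to the non-targeting guides (adjusted p = 0.0733, edgeR) and -0.0113 without its most deviating guide (adjusted p = 0.582, edgeR). Isl1, a motor neuron and heart gene, stood at 0.02, and its paralog Isl2 at 0.52. The summed slope of Isl2 rose (0.0368, adjusted p = 0.00746, edgeR) but was -0.0226 when scaled to the non-targeting guides (adjusted p = 0.0711, edgeR). Lhx2, a forebrain and eye gene, had the lowest LIM value at -0.11. Otx1, a forebrain gene, had the highest PRD-like value at 0.53. Its summed slope rose (0.0376, adjusted p = 0.00415, edgeR) but was -0.0212 when scaled to the non-targeting guides (adjusted p = 0.126, edgeR). Within the CUT family Cux1 stood at -0.07, Cux2 at 0.04 and Onecut2 at -0.24.

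Strong losses of member guides were few and mostly single. At day 12, 13 of 895 member guides, or 1.45%, were at or below -2, against 10.0% of guides to all other genes and 0.336% of non-targeting guides. Paxbp1 held 3 of them and Onecut1 2, and Alx4, Cux1, Dlx4, Irx6, Nkx2-3, Pax7, Six4 and Tgif1 held 1 each. Of these single guides, the lowest of each gene whose guides spanned over 3 log2 units are shown. No other guide of these genes was at or below -2.

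Alx4 guide 1: accgattctgAGAGTAACAA
Cux1 guide 1: tctgattctcTCCAACAAGA
Dlx4 guide 1: gctgataccaGGCACCAAAG
Irx6 guide 1: gcaaagagtaGAGGCAGAGG
Nkx2-3 guide 1: caggttgctcACGTTCACAA

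The Dlx4 guide (a branchial arch and placenta gene) had 161 and 45 reads in the plasmid libraries, then 15, 9 and 1 reads at days 5, 8 and 12. It stood at -4.30, while the next Dlx4 guide stood at -0.39 and the gene median was 0.09. The Alx4 guide (a craniofacial and limb gene) had 113 and 57 reads in the plasmid libraries, then 5, 13 and 1 reads. It stood at -4.21, and the next guide at -0.30. The low guides of Irx6, Cux1 and Nkx2-3 stood at -3.74, -2.99 and -2.68, and the next guides of these genes at -0.94, -0.80 and -0.24. In each of the 5 genes the median stayed between -0.07 and 0.40. Where these guides cut, and what else they match in the genome, was not analysed here.

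Guides to a member differed from each other less than those to a typical gene. The median SD over guides at day 12 was 0.648 for members and 0.77 for all genes, and a span over 3 log2 units was found in 15 members, or 14.6%, against 28.4% of all genes. Opposite values also occurred within overlapping pairs. The widest difference was in Pou1f1, whose guides 1 and 7 share a run of 17 bases and stood at -1.47 and 1.67. Over the 190 overlapping pairs the median difference was 0.646.

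Base composition moved with the values. Member guides had 11.6 G or C bases on average, guides to all other genes 10.8 and non-targeting guides 11.1. Member guides with 9 or fewer had a day 12 median of -0.06 (115 guides), those with 10 to 12 had 0.24 (478 guides) and those with 13 or more had 0.39 (302 guides). In the same classes guides to all other genes had -0.55, -0.05 and 0.28, and non-targeting guides had 0.15, 0.60 and 0.77. Within each class the members lay above the other genes and below the non-targeting guides. From day 5 to day 12 the slope per G or C base was 0.0254 in member guides and -0.0014 in non-targeting guides, against 0.127 and 0.125 at day 12 against plasmid. A correction fitted on the non-targeting guides moved the day 12 value of 31 of the 40 genes it was followed in by more than the SD between the plasmid libraries.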

How the data were processed

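Guide RNAs integrated in genomic DNA, or in the plasmid pool, were sequenced in 5 libraries. The authors deposited 1 whole-number count of reads for each guide and library, with no normalization. The submitters' processing notes name cutadapt, Bowtie and featureCounts, with versions and settings not given in the sources used here. Members and gene lists were chosen with earlier results of these data known.

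Guides needed at least 30 reads in both plasmid libraries. Counts were scaled by TMM to CPM, a depth-scaled count. Log2 ratios used a pseudocount of 1 and the mean of the 2 plasmid libraries, and a gene's value is the median over its guides. With 1 library per time point, a call is a 2-fold change and has no p-value. Trends over days were tested with edgeR 4.0.16 in R 4.3.3 (quasi-likelihood, Benjamini-Hochberg adjustment over all genes or all guides, threshold 0.05). Simulated counts with as many rising as falling genes were used to check the sign of the median slopes. Such balanced counts cannot test the choice of scaling. DESeq2 1.42.0, other scalings, filters and pseudocounts, a base composition correction and leaving out each library were alternatives. Scaling to non-targeting guides and leaving out each gene's most deviating guide were added after seeing the data. Total reads of 1008492 to 3541896 per library limit precision for single guides. Named genes were the 8 lowest and 8 highest at day 12, members past 2-fold or with a trend, family extremes and 10 preset genes. The rule gave 82 genes, most of which are covered by counts, and a few are not reported here singly. A few paralogs of named genes (such as Pbx3, Pbx4 and Six5) are given beside them. The position of guides in proteins was planned and not analysed here.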

Additional observations from a re-analysis of the deposited data

How the results depend on the processing

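With 1 library per time point, the counts past 2-fold rest on few genes near the limit. At day 12 the count of 1 member became 0 with DESeq2 size factors, pseudocount 5, no read filter or the base composition correction. It became 2 with total reads and 5 centred on the non-targeting guides (Onecut1, Paxbp1, Pbx2, Six4 and Tgif1). At 100 or more plasmid reads it became 3 (Pbx2 lower, Hhex and Pou4f1 higher). Onecut1 kept no guide at that minimum and so had no value, and all counts at that minimum cover fewer genes and guides. With the mean over guides the count was 1, but the gene was Paxbp1 (-1.49) and not Onecut1 (-0.90). It was 1 to 1 when either plasmid library was left out, with Onecut1 past 2-fold without plasmid library 1 and Paxbp1 without plasmid library 2. At day 8 the count of 0 became 2 when centred, 1 at 100 or more reads and 1 with the mean over guides; from day 5 to day 12 it became 1 when centred. At day 5 it was 0 throughout. The member median of 0.29 at day 12 was 0.17 with total reads, -0.30 when centred, 0.23 with the mean over guides, 0.13 with the base composition correction and 0.27 to 0.32 without either plasmid library; the median of all genes was -0.10, -0.57, -0.08 and -0.02 under the first 4. Members with a trend numbered 67, 39 at 100 or more reads and 44 to 69 with a library left out, 44 of them without plasmid library 2. Member guides with a trend numbered 269, 84 at 100 or more reads and 130 to 321 with a library left out, with 130 without plasmid library 1 and 140 without plasmid library 2. Scaled to the non-targeting guides, slopes turned to -0.00908 for Dlx5, -0.0105 for Pax6, -0.00469 for Pou2f1, -0.027 for Cdx2, -0.0339 for Cux2, -0.0264 for Pbxip1, -0.0124 for Meis1, -0.0226 for Isl2 and -0.0212 for Otx1. The slope of Cdx2 was -0.0113 without its most deviating guide, and that of Cux2 was -0.00274 at 100 or more reads. Beyond the number of guides or libraries used, the cause was not tested. The trends of Pbx2, Hhex and Pax9 passed the threshold in 12 of 12 alternatives. No paired analysis was possible because the groups share fewer than 2 replicate numbers.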

Other observations

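Among homeobox genes outside the symbol rule were 2 genes of pluripotency with large losses. Of 41 such genes, on a chosen list without Hox cluster genes, 3 were at or below -1 at day 12, or 7.32% against 15.8% of all genes. The median of the 41 was 0.21. Pou5f1 (OCT4) and Nanog, core factors of the pluripotent state, stood at -2.08 and -1.76, the first on 5 kept guides of 10. Nanog had 533 and 574 CPM in the plasmid libraries, then 255, 170 and 141 CPM at days 5, 8 and 12. Zeb1, a gene for a zinc finger and homeodomain repressor, stood at -1.29 with 10 of 10 guides below 0 and fell over days (slope -0.0958, adjusted p = 0.000137, edgeR, and -0.157 when scaled to the non-targeting guides). Adnp, a chromatin-associated homeodomain gene, stood at -0.60 with 9 of 9 guides below 0 and also fell (slope -0.055, adjusted p = 0.000425, edgeR, and -0.115 when scaled to the non-targeting guides). Otx2, the paralog of Otx1, stood at 0.09.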
